A study of Mus musculus with 14 samples.

Results

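The 34 genes described here encode enzymes that make pyrimidine and purine nucleotides, convert them to deoxynucleotides, and supply serine and folate-bound one-carbon units. They were chosen by gene symbol, with earlier results of these data known. All 34 were measured in both expression tables of the series, among 13406 genes in the doxycycline table and 14563 genes in the Id2 table. The RNA came from mouse acute myeloid leukaemias on the C57/BL6 background, raised in lethally irradiated recipients of transduced foetal liver cells and harvested from the spleens of terminally sick animals. All 14 libraries came from cells that carry a Tet-Off vector for the fusion oncogene MLL-AF9 with a dsRED reporter, and another vector for oncogenic NRASG12D and the Tet-Off activator. One experiment set 4 libraries of cells cultured with doxycycline for 4 days, where the drug turns MLL-AF9 off, against 4 libraries of untreated cells. The other set 3 libraries of cells transduced with Id2-GFP against 3 transduced with control-GFP, the retroviruses being traced by their GFP and the cells sorted on it 2 days later, with MLL-AF9 still on. The Id2 protein lacks a DNA-binding domain and holds E proteins away from DNA.

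De novo synthesis builds the pyrimidine ring and then adds it to phosphoribosyl pyrophosphate (PRPP), whereas the purine ring is built up stepwise on PRPP until inosine monophosphate (IMP) is reached. Salvage enzymes instead attach a ready-made base to PRPP. Serine made from a glycolytic intermediate passes its side-chain carbon to folate, and folate carries that carbon into the purine ring and into thymidylate. Dividing cells, leukaemia cells among them, draw on these pathways to copy DNA, and antimetabolite drugs used in leukaemia act on several of their enzymes.

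The libraries matched their labels. Transcripts of Mll1 and Mllt3, the partners in the MLL-AF9 fusion, fell by 4.80 ± 0.30 and 6.23 ± 0.32 on the log2 scale (SE) in doxycycline, and Id2 was 5.18 ± 0.31 higher in Id2-GFP libraries. Reads per library came to 17922644 to 25959766 in the doxycycline table and to 14051150 to 14948487 in the Id2 table, and the least read of the 34 genes in each table, Dhodh, had at least 215 and 273 reads in a library. Levels are given as CPM, the reads of a gene relative to the total of its library as the authors scaled it within each table. Differences are in log2 CPM, followed by their SE. The adjusted p-values come from limma with Benjamini-Hochberg adjustment over all genes of a table, called under 0.05. The labels do not say that replicates came from separate animals, so these p-values reflect variation among libraries that may be partly technical. In such bulk RNA, fewer cells of a type and less RNA per cell cannot be told apart.

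Synthesis genes were lower almost throughout after 4 days of doxycycline. Of the 34 genes, 30 fell, only Aprt rose, and Ctps2, Hprt and Mthfd2 were not called. In the table as a whole 33.8% of genes fell and 31.3% rose, so 65.1% were called, and 52% of genes were below 0 against 31 of the 34. The median difference of the 34 genes was −0.80, against −0.03 for all genes, and 10 of the 34 fell at least 2-fold, against 5.18% of all genes. For 30 of the 34 genes the highest doxycycline library lay below the lowest untreated library, against 31.1% of all genes. They were the 30 genes called as lower, for which such a gap is likely, so it adds no separate evidence. The same 30 were lower in 4 of 4 pairs, which was not counted over all genes. The 34 genes together took 0.220 to 0.240% of reads in doxycycline libraries, against 0.425 to 0.452% in untreated libraries, as shares of plain library totals. In CPM as the authors scaled it, the gap was smaller. The 34 genes summed to 2475 to 2546 CPM in doxycycline libraries, against 3859 to 4153 CPM in untreated libraries.

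Transcripts that mark dividing cells moved with this result. All 20 measured proliferation markers fell, with a median difference of −0.65, and their summed level was 3287 to 3471 CPM in doxycycline libraries, against 5531 to 5782 CPM in untreated libraries. Myc, whose product activates many nucleotide synthesis genes, had 68.0, 71.1, 74.3 and 53.2 CPM in doxycycline libraries, against 139, 148, 137 and 133 CPM in untreated libraries, and fell by 1.07 ± 0.10 (adjusted p = 9.6e-06). E2f1, which encodes a regulator of S-phase genes, fell by 0.35 ± 0.05. Atf4, whose product activates serine synthesis genes, differed by −0.18 ± 0.08 and was not called (adjusted p = 0.085, or 0.034 with the pair as a block). Of the 10 measured myeloid markers, 7 rose and 2 fell. Stromal and endothelial markers, 3 of 8 of them measured, summed to 146 to 171 CPM in doxycycline libraries, against 309 to 335 CPM in untreated libraries, with 1 higher and 2 lower. Megakaryocyte markers, 4 of 5 measured, summed to 7.19 to 14.5 CPM in doxycycline libraries, against 23.6 to 49.2 CPM in untreated libraries, with 1 higher and 2 lower. The 2 of 6 B cell markers measured were not called, at 257 to 344 CPM in doxycycline libraries and 275 to 473 CPM in untreated libraries. The 1 of 8 T and NK cell markers measured fell, at no more than 0.320 CPM in doxycycline libraries and 1.06 CPM in untreated libraries, and 0 of 10 erythroid markers were among the measured genes. The part of all these genes in the fall of the synthesis genes was not tested. No library had doxycycline without the switch, so the drug and the loss of MLL-AF9 cannot be told apart.

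**Figure D1:**
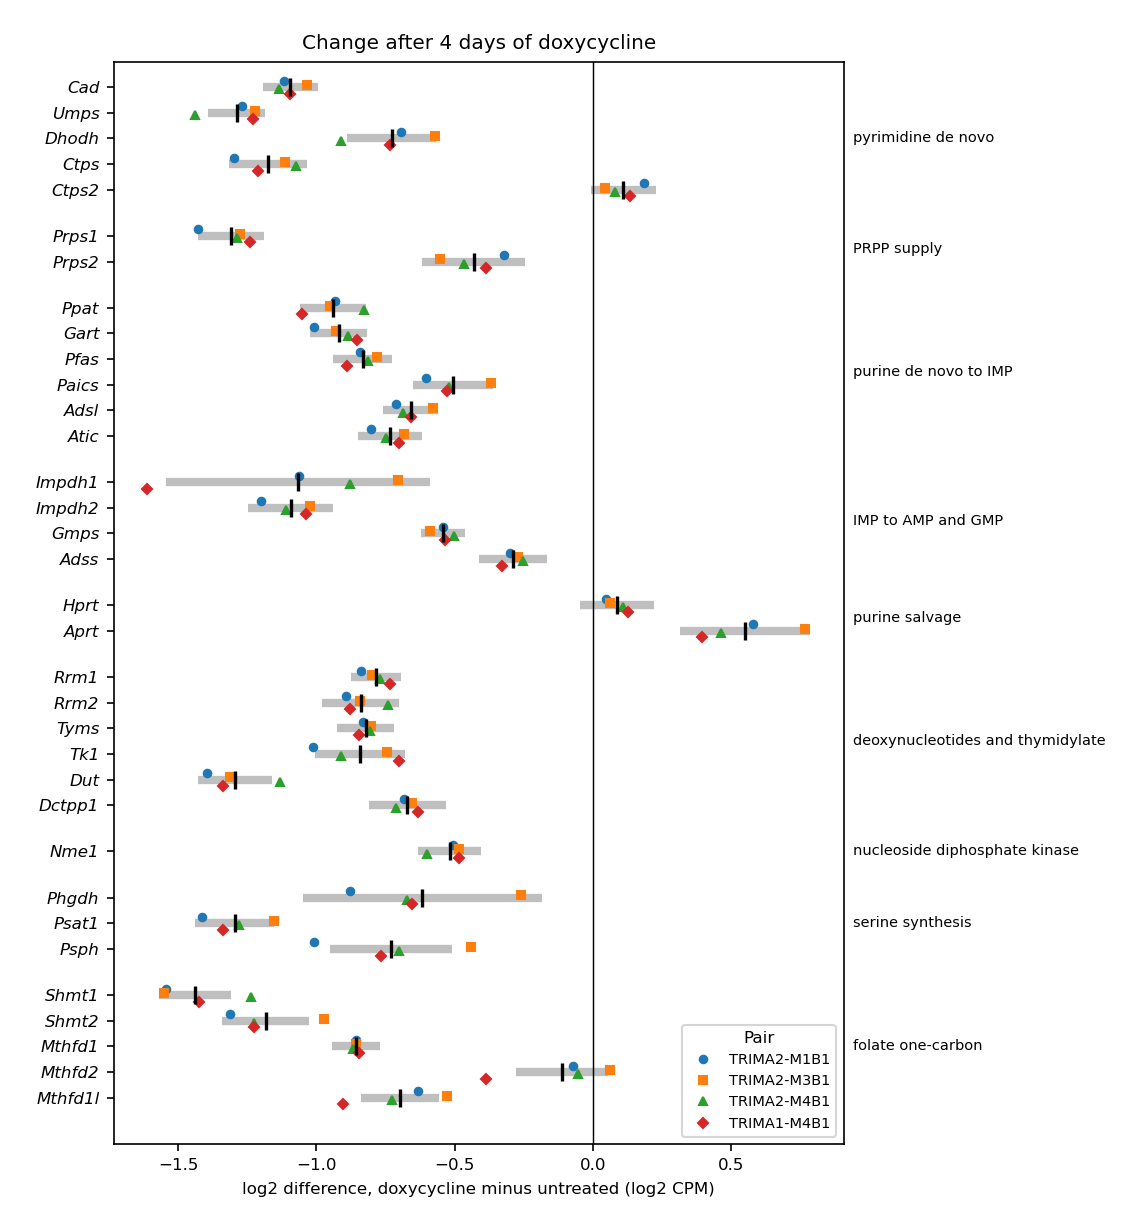
Difference in log2 CPM, doxycycline minus untreated, for each of the 34 genes (rows, grouped by role). Coloured symbols are the 4 pairs named by their label, black ticks the fitted difference and grey bars its 95% confidence interval. The fit had no pair block. In every pair, 30 genes lie left of 0, and Aprt, Ctps2 and Hprt lie right of 0.

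Start-site windows of 32 of the 34 genes were read from RefSeq on GRCm38.p6, each running from 250 bases before the start to 50 after it, and gave 38 windows because some genes have several starts. The letters CACGTG, the E-box that MYC and related factors bind, were searched on both strands, as were the E2F-type letters TTTCCCGC or TTTGGCGC and the ATF4-type letters TGATGCAA. CACGTG was in 6 of the 38 windows (15.8%), against 7.15% of all 32851 windows of the RefSeq list. By gene, it was in 5 of 32, against 8.09% of 27025 genes. That list includes genes not measured here, so these shares do not compare expressed genes alone. The E2F-type letters were in 2 windows, those of Ppat and Prps2 (5.26%, against 1.56% of all windows), and TGATGCAA was in 0, against 0.895% of all windows. The 6 windows with CACGTG belong to 5 genes, all of which fell, as did 23 of the 27 genes whose windows lack it. Of all genes in the doxycycline table, 33.8% fell. The median difference was −0.73 for the 5 genes with CACGTG and −0.84 for the 27 without it. A match is a description of the letters and does not show binding. The stretches around the matches are shown because these 5 genes span purine synthesis, thymidylate synthesis and phosphate transfer, with CACGTG in capitals, on the strand of the gene.
Atic, chr1:71557119-71557184, plus strand, E-box at −7: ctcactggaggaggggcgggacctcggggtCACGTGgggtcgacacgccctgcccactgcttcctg
Paics, chr5:76951069-76951134, plus strand, E-box at −203: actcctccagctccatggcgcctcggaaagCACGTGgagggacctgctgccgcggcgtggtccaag
Impdh2, chr9:108560296-108560361, plus strand, E-box at −110: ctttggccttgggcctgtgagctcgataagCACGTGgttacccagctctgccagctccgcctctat
Tyms, chr5:30073651-30073716, minus strand, E-box at −61: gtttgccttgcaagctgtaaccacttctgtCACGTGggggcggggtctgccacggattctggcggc
Nme1, first start, chr11:93968255-93968320, minus strand, E-box at −18: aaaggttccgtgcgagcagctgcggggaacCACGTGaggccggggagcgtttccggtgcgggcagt
Nme1, second start, chr11:93968019-93968084, minus strand, E-box at −29: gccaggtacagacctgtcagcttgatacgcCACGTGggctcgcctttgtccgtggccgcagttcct
The distances count bases from the annotated start to the first base of the E-box.

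Pyrimidine synthesis held some of the deepest falls and a gene that did not move with them. Cad, which encodes the enzyme of the opening 3 steps, had 88.1, 84.7, 86.9 and 88.8 CPM in doxycycline libraries, against 191, 174, 191 and 190 CPM in untreated libraries. The groups lay far apart with little spread in either, and Cad fell 2.14-fold (−1.10 ± 0.04, adjusted p = 2.4e-07). Umps, whose product makes uridine monophosphate from orotate, had 43.0, 44.3, 41.6 and 43.5 CPM in doxycycline libraries, against 104, 103, 113 and 102 CPM in untreated libraries, and fell 2.44-fold. Dhodh, the mitochondrial enzyme between them, fell less (−0.73 ± 0.07), to 12.8 to 15.2 CPM in doxycycline libraries, against 21.5 to 24.1 CPM in untreated libraries.

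The paralogs that turn UTP into CTP parted. Ctps had 29.2, 29.8, 32.5 and 27.6 CPM in doxycycline libraries, against 71.7, 64.5, 68.5 and 64.0 CPM in untreated libraries, and fell by 1.18 ± 0.06. Ctps2 had 91.7, 79.7, 82.2 and 88.5 CPM in doxycycline libraries, against 80.6, 77.3, 77.8 and 80.6 CPM in untreated libraries. These Ctps2 values overlapped, with a difference of 0.11 ± 0.05 that was not called (adjusted p = 0.085), although it passed with the pair as a block (adjusted p = 0.048), a fit in which 36% of all genes fell and 33.6% rose. Within each library the log2 ratio of Ctps over Ctps2 was −1.65, −1.42, −1.34 and −1.68 in doxycycline, against −0.17, −0.26, −0.18 and −0.33 in untreated cells. The groups did not overlap, with a difference of −1.29, and the exact two-sided permutation p of 0.0286 is the smallest that 4 against 4 libraries allow. Adjusted over the 14 ratios tested in both tables it was 0.133, and with so few libraries no ratio could pass that adjustment.

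The genes that supply PRPP fell to different extents. Prps1 had 19.0, 21.0, 21.1 and 21.9 CPM in doxycycline libraries, against 51.2, 51.0, 51.5 and 51.7 CPM in untreated libraries, with little spread in either group. It fell by 1.31 ± 0.05 (adjusted p = 2.4e-07). Its paralog Prps2 had 32.5, 36.2, 35.6 and 36.9 CPM in doxycycline libraries, against 40.5, 53.1, 49.2 and 48.3 CPM in untreated libraries. The groups lay apart, and Prps2 fell by 0.43 ± 0.08 (adjusted p = 0.0013). The log2 ratio of Prps1 over Prps2 was −0.77 ± 0.01 in doxycycline, against 0.11 ± 0.17 in untreated cells (SD, n = 4 each, exact permutation p = 0.0286, adjusted p = 0.133).

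All 6 genes of the purine pathway up to IMP fell, over a narrower range of −0.94 to −0.51 and with a median of −0.78. Ppat, which encodes the enzyme of the committed step, had 32.9, 34.8, 34.4 and 30.9 CPM in doxycycline libraries, against 62.8, 67.2, 61.1 and 64.1 CPM in untreated libraries, and fell by 0.94 ± 0.05. Gart, a trifunctional enzyme that also takes a one-carbon unit from folate, fell by 0.92 ± 0.05. Pfas, Adsl and Atic, which act further along the ring and at its closure, fell by 0.83 ± 0.05, 0.66 ± 0.04 and 0.73 ± 0.05. Paics, the highest of the 6 in CPM, had 151, 179, 152 and 149 CPM in doxycycline libraries, against 230, 231, 218 and 214 CPM in untreated libraries. Doxycycline replicate 2 was the high value of its group, and Paics fell least of the 6 (−0.51 ± 0.06, adjusted p = 9.2e-05). Ppat and Paics start back to back on chromosome 5, where their exons share 272 bases on opposite strands, and reads there cannot be assigned to either because the strand used in counting is not stated.

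From IMP onward, all 4 genes of the branches to GMP and AMP fell. Impdh2, the IMP dehydrogenase of proliferating cells, had 66.4, 77.9, 74.4 and 67.3 CPM in doxycycline libraries, against 153, 158, 161 and 138 CPM in untreated libraries, and fell by 1.09 ± 0.07 (adjusted p = 1.2e-06). Its paralog Impdh1 had 31.5, 22.6, 32.5 and 19.9 CPM in doxycycline libraries, against 65.9, 36.8, 59.7 and 60.9 CPM in untreated libraries. Untreated replicate 2 was the low value of its group, and the groups still lay apart, with a fall of 1.07 ± 0.21 (adjusted p = 0.0016). The log2 ratio of Impdh2 over Impdh1 overlapped between the groups, with a difference of −0.03 (exact permutation p = 0.943, also after adjustment). Gmps, which completes GMP, fell by 0.54 ± 0.04, and Adss, which starts the branch to AMP, fell by 0.29 ± 0.05, the least of the 30 genes that fell. The difference between the branches was not tested.

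Neither of the 2 purine salvage genes fell. Aprt, which encodes adenine phosphoribosyltransferase, had 275, 234, 239 and 258 CPM in doxycycline libraries, against 184, 137, 173 and 196 CPM in untreated libraries. It was higher in every doxycycline library than in any untreated library, which held for 28.9% of all genes, and it rose by 0.55 ± 0.10 (adjusted p = 0.0012). Hprt, whose product salvages hypoxanthine and guanine, had 161, 146, 143 and 151 CPM in doxycycline libraries, against 155, 139, 133 and 139 CPM in untreated libraries. Hprt was higher in every pair, by 0.05 to 0.13, but the groups overlapped. The difference of 0.09 ± 0.06 was not called (adjusted p = 0.22). Under scaling by plain library totals, the median of all genes was at −0.27 instead of −0.03. Aprt still rose there (0.31, adjusted p = 0.0136), whereas Hprt and Ctps2 turned to −0.15 and −0.13 and were called as lower (adjusted p = 0.0338 and 0.0199).

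All 6 genes of deoxynucleotide and thymidylate supply fell, with a median of −0.83. Rrm1, the large subunit of ribonucleotide reductase, had 219, 215, 215 and 226 CPM in doxycycline libraries, against 392, 375, 367 and 375 CPM in untreated libraries, and fell by 0.79 ± 0.04. Rrm2, the small subunit, fell by 0.84 ± 0.06. The log2 ratio of Rrm2 over Rrm1 overlapped between the groups (difference −0.05, exact permutation p = 0.371, adjusted p = 0.622). Dut, whose product removes dUTP, had 46.0, 48.4, 52.6 and 44.1 CPM in doxycycline libraries, against 121, 120, 115 and 111 CPM in untreated libraries, and fell 2.45-fold, the most of this group. Tyms, which makes thymidylate with a folate-bound carbon, fell by 0.82 ± 0.05, and Tk1, which salvages thymidine, by 0.84 ± 0.07. Dctpp1, which clears modified deoxycytidine triphosphates, fell by 0.67 ± 0.06. Nme1, a nucleoside diphosphate kinase that completes the triphosphates, fell by 0.52 ± 0.05, to 50.2 to 55.2 CPM in doxycycline libraries, against 70.2 to 78.3 CPM in untreated libraries.

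The 3 enzymes that make serine from a glycolytic intermediate fell to different extents and with different spread. Psat1, the transaminase of the middle step, had 122, 117, 123 and 116 CPM in doxycycline libraries, against 325, 262, 298 and 292 CPM in untreated libraries, and fell 2.46-fold (adjusted p = 4.5e-07). Phgdh, the dehydrogenase of the first step, had 24.2, 38.5, 40.2 and 26.1 CPM in doxycycline libraries, against 44.5, 46.1, 64.1 and 41.1 CPM in untreated libraries. Its groups were separated only narrowly, by doxycycline replicate 3 and untreated replicate 4. Phgdh fell by 0.62 ± 0.19 (adjusted p = 0.018). The call was lost without doxycycline replicate 1 (−0.49, adjusted p = 0.050) and without both libraries of pair TRIMA2-M1B1 (−0.53, adjusted p = 0.0645). Psph, the phosphatase of the last step, fell by 0.73 ± 0.10 (adjusted p = 1.3e-04), to 12.9 to 15.7 CPM in doxycycline libraries, against 21.2 to 27.9 CPM in untreated libraries.

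In folate one-carbon metabolism, 4 of 5 genes fell and the mitochondrial Mthfd2 did not. Shmt1, the cytosolic hydroxymethyltransferase that moves a carbon from serine to folate, had 19.4, 19.2, 21.9 and 20.3 CPM in doxycycline libraries, against 56.6, 56.3, 51.6 and 54.7 CPM in untreated libraries. This was the deepest fall of the 34 genes, at 2.71-fold (−1.44 ± 0.06, adjusted p = 2.4e-07). Shmt2, its mitochondrial paralog, had 79.1, 96.5, 89.7 and 80.5 CPM in doxycycline libraries, against 196, 189, 210 and 189 CPM in untreated libraries, and fell by 1.18 ± 0.07. Their log2 ratio, Shmt2 over Shmt1, differed by 0.25 with overlapping groups (exact permutation p = 0.0571, adjusted p = 0.2).

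Mthfd1, the cytosolic trifunctional enzyme, averaged 48.5 ± 1.14 CPM in doxycycline libraries and 88.0 ± 1.72 CPM in untreated libraries (SD, n = 4 each), and fell by 0.86 ± 0.04. Mthfd1l, which releases formate in mitochondria, fell by 0.70 ± 0.06. Mthfd2, the mitochondrial dehydrogenase and cyclohydrolase upstream of it, had 86.2, 81.1, 80.6 and 71.7 CPM in doxycycline libraries, against 90.6, 77.6, 83.6 and 93.8 CPM in untreated libraries. These values overlapped, and the difference of −0.11 ± 0.07 was not called (adjusted p = 0.21), although it was called as lower with library totals (−0.35, adjusted p = 0.0023) and with quantile normalization (−0.20, adjusted p = 0.0313). The log2 ratio of Mthfd2 over Mthfd1 was 0.82, 0.77, 0.75 and 0.52 in doxycycline, against 0.04, −0.15, −0.07 and 0.06 in untreated cells, without overlap (difference 0.75, exact permutation p = 0.0286, adjusted p = 0.133). The ratio of Mthfd1l over Mthfd1 differed by 0.16 with overlapping groups (exact permutation p = 0.114, adjusted p = 0.229).

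**Figure D2:**
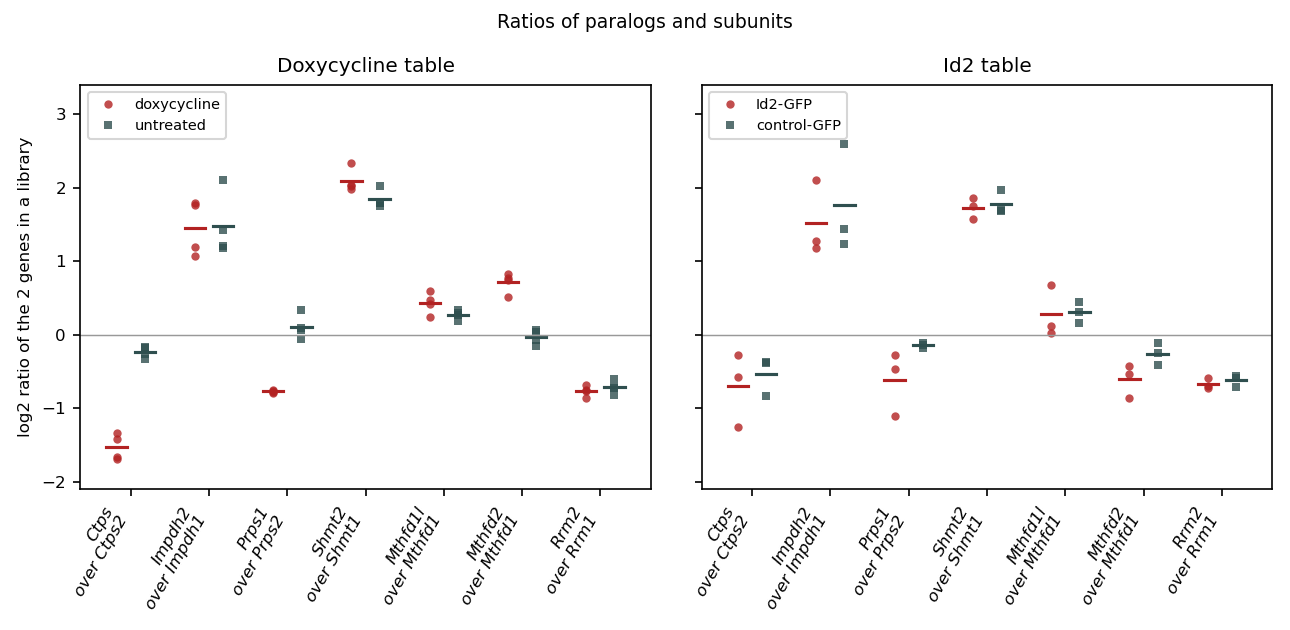
Log2 ratio of 2 genes within each library, for 7 pairs of paralogs or partners, with the doxycycline table on the left and the Id2 table on the right. Points are libraries and bars group means; doxycycline and untreated libraries are apart for Ctps over Ctps2, Prps1 over Prps2 and Mthfd2 over Mthfd1.

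Set side by side per kilobase of exon (RPKM), the order of the genes changed with the falls. The length counts every base in any annotated exon of a gene, which can exceed the length of its main transcript. Rrm1, for one, was divided by 11012 bases and Hprt by 1289, so ranks between genes depend on the annotation. On this scale the highest levels in untreated cells were those of Hprt at 110 ± 7.62 and Aprt at 107 ± 15.6 RPKM (SD, n = 4), which did not differ beyond their spread. Rrm2 at 83.3 ± 5.72 and Paics at 71.2 ± 2.73 RPKM followed. Psat1 and Shmt2, at 69.1 ± 6.12 and 63.0 ± 3.21 RPKM, came next in untreated cells and also lay within their spread of each other. In doxycycline, Aprt was at 156 ± 11.5 RPKM and Hprt at 116 ± 6.08 RPKM, while Paics was at 50.3 ± 4.55 and Psat1 at 28.1 ± 0.81 RPKM. Psph and Dhodh had the lowest levels in both groups, with 3.27 ± 0.26 and 2.15 ± 0.17 RPKM in doxycycline and 5.44 ± 0.70 and 3.56 ± 0.18 RPKM in untreated cells. Ctps was below its paralog Ctps2 per length in doxycycline (8.98 ± 0.62 against 18.1 ± 1.17 RPKM) and above it in untreated cells (20.3 ± 1.1 against 16.8 ± 0.38 RPKM).

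**Figure D3:**
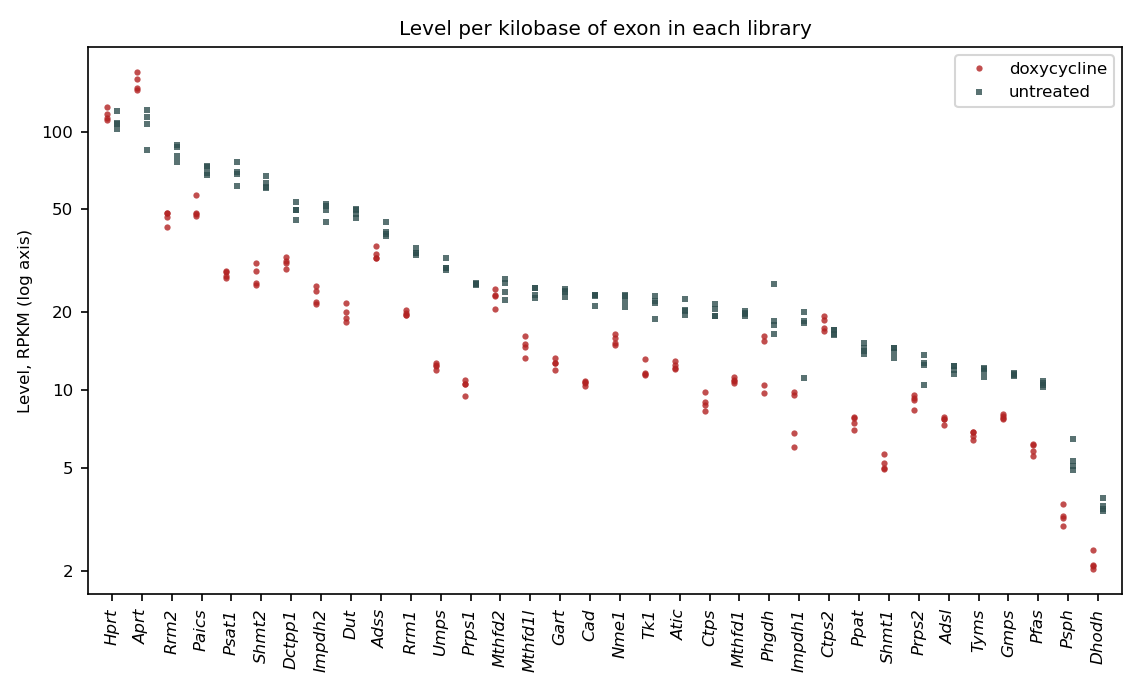
Level of the 34 genes in each library of the doxycycline table, in RPKM (CPM per kilobase of exon, log axis), with doxycycline libraries left of untreated libraries and genes ordered by their untreated mean. The doxycycline points lie below the untreated points for 30 genes and above them for Aprt.

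Genes elsewhere in nucleotide, folate and serine metabolism moved in both directions. Of 76 measured genes outside the 34, 36 fell and 18 rose, with a median of −0.20, beside 30 and 1 of the 34 synthesis genes. In the table as a whole 33.8% of genes fell and 31.3% rose, so movement in both directions was not particular to these genes. The 4 that rose most were Upp1, Xdh, Entpd1 and Samhd1, which act in the breakdown of nucleotides, nucleosides or bases. Xdh, xanthine dehydrogenase of the last steps of purine breakdown, had 411, 353, 353 and 441 CPM in doxycycline libraries, against 61.6, 63.7, 58.3 and 86.0 CPM in untreated libraries, and rose by 2.54 ± 0.12 (adjusted p = 4.5e-07). Samhd1, which hydrolyses deoxynucleoside triphosphates, rose by 1.45 ± 0.09, to 375 to 443 CPM in doxycycline libraries, against 125 to 163 CPM in untreated libraries. Entpd1, an ectonucleotidase known as CD39, rose by 1.84 ± 0.09, and Upp1, a uridine phosphorylase, by 2.83 ± 0.26 at low levels of 7.28 to 14.3 CPM in doxycycline libraries, against 1.02 to 1.98 CPM in untreated libraries.

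The list of breakdown and clearance genes did not move as a block, with 4 of 18 higher and 10 lower. Among the genes that fell most, Ada, adenosine deaminase, fell by 1.65 ± 0.19, Nme4, a mitochondrial nucleoside diphosphate kinase, by 1.45 ± 0.09 and Dctd, which deaminates dCMP for thymidylate synthesis, by 1.42 ± 0.08. Ak4, a mitochondrial adenylate kinase, fell by 2.16 ± 0.75 (adjusted p = 0.030), with 1.45, 11.4, 5.22 and 0.67 CPM in doxycycline libraries, against 9.77, 13.9, 16.4 and 10.4 CPM in untreated libraries. Its groups overlapped at doxycycline replicate 2. Of 18 other kinases 5 rose and 7 fell, of 10 interconversion genes 3 rose and 4 fell, of 8 serine and glycine genes 2 rose and 2 fell, and of 4 nucleoside transporters 0 rose and 3 fell. The shares over all genes, to be read beside these counts, were 31.3% that rose and 33.8% that fell.

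Of 18 other folate and methionine cycle genes, 4 rose and 10 fell, where 31.3% of all genes rose and 33.8% fell. The following were named after their values were seen. Slc19a1, the reduced folate carrier, had 15.6, 16.0, 15.9 and 13.7 CPM in doxycycline libraries, against 40.9, 36.7, 36.0 and 39.1 CPM in untreated libraries, and fell by 1.32 ± 0.07. Fpgs, which adds the glutamate tail that retains folate in cells, fell by 1.08 ± 0.09. Ggh, which removes that tail, had 74.4, 61.7, 61.0 and 78.2 CPM in doxycycline libraries, against 26.7, 28.4, 24.4 and 28.5 CPM in untreated libraries, and rose by 1.34 ± 0.09. Mthfs, which recovers formyl folate, rose by 1.21 ± 0.14.

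**Figure D4:**
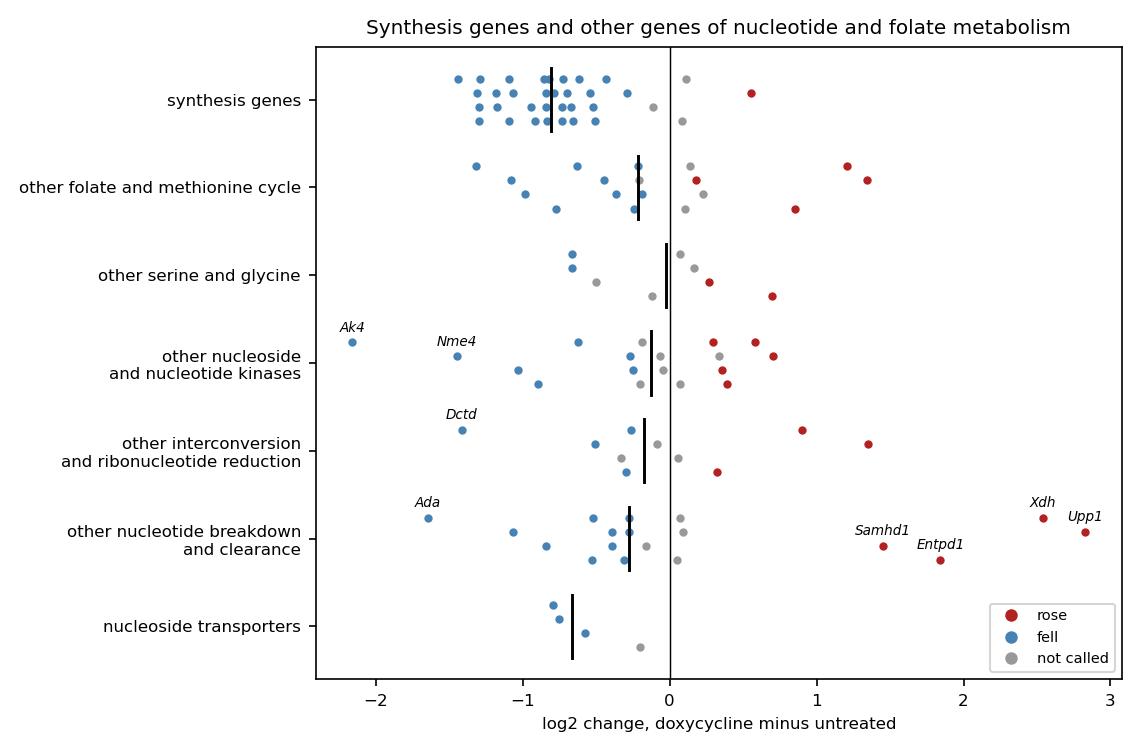
Log2 change, doxycycline minus untreated, of the 34 synthesis genes (top row) and of 76 other genes of nucleotide, folate and serine metabolism by list. Points are genes coloured by call and black bars are list medians, which run from −0.80 for the synthesis genes to −0.02 for the other serine and glycine genes.

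With Id2, none of the 34 genes was called, at a spread between libraries several times that of the doxycycline table, which does not show that the genes were unchanged. In this comparison 0.0137% of all genes rose and 0% fell. Id2-GFP and control-GFP libraries overlapped for all 34 genes, whereas 3.77% of all genes were lower and 3.18% higher without overlap. Of the 34 genes, 0 passed at an unadjusted p under 0.05, against 2.45% of all genes, and 0 were called in limma with voom weights or with the replicate as a block, where 0.13% of all genes fell and 0.11% rose. The difference was below 0 for 30 of the 34 genes, against 55.3% of all genes, with a median of −0.23 against −0.03 for all genes. The median SD of log2 CPM within a group was 0.41 in Id2-GFP and 0.26 in control-GFP libraries, beside 0.08 in doxycycline and 0.07 in untreated libraries.

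The median rested on single libraries. By replicate, the median of the 34 differences was 0.08, −0.30 and −0.46, with 8, 29 and 30 genes lower. Over all genes the medians were 0.01, −0.01 and −0.09, with 47.7, 50.7 and 54.5% lower. Of the 34 genes, 7 were lower in every pair, which was not counted over all genes. Their summed level was 4069, 2584 and 3001 CPM in Id2-GFP libraries, against 3911, 3283 and 4151 CPM in control-GFP libraries. Id2-GFP replicate 1 lay with the control-GFP libraries, and Id2-GFP replicate 2 was the lowest of all. Without Id2-GFP replicate 1 the median was −0.40, and without Id2-GFP replicate 2 it was −0.08. It was −0.37 without control-GFP replicate 2 and −0.12 without control-GFP replicate 3. Control-GFP replicate 3 stood apart in the table, with a scaling factor of 0.913 against 1.01 to 1.03 in the other 5. It also had the highest summed level of erythroid markers, at 36.2 CPM. That level ran from 0.864 to 36.2 CPM in control-GFP libraries and from 0.871 to 5.45 CPM in Id2-GFP libraries.

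Psat1, the transaminase of serine synthesis, showed the largest difference. It had 267, 146 and 144 CPM in Id2-GFP libraries, against 313, 238 and 269 CPM in control-GFP libraries. The groups overlapped at Id2-GFP replicate 1, and the difference of −0.61 ± 0.27 was not called (adjusted p = 0.998, or 0.523 with the replicate as a block). Rrm2 had 236, 131 and 136 CPM in Id2-GFP libraries, against 240, 218 and 214 CPM in control-GFP libraries, and Tyms had 76.3, 50.5 and 51.6 CPM in Id2-GFP libraries, against 93.4, 64.7 and 84.1 CPM in control-GFP libraries. In both genes Id2-GFP replicate 1 lay among the control-GFP values, and the differences were −0.47 ± 0.25 and −0.45 ± 0.23. Dut, the dUTPase, differed by −0.57 ± 0.37, with 107, 53.2 and 83.9 CPM in Id2-GFP libraries, against 110, 77.1 and 184 CPM in control-GFP libraries, where replicate 3 was high. Mthfd2 differed by −0.49 ± 0.31. All 6 deoxynucleotide genes were below 0, with a median of −0.44, whereas the pyrimidine genes had a median of −0.08.

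The 4 genes above 0 were Prps2, Pfas, Adss and Atic, with differences of 0.10 ± 0.34, 0.09 ± 0.23, 0.07 ± 0.17 and 0.01 ± 0.23. Pfas, for one, had 92.1, 71.5 and 92.4 CPM in Id2-GFP libraries, against 97.7, 86.3 and 59.6 CPM in control-GFP libraries, where replicate 3 was the low value. The 95% intervals of the 34 genes had half-widths of 0.36 to 1.20, and their bounds reached from −1.43 to 1.08. They come from the fit without the replicate as a block, so variation between replicate pairs counts as error in them. For 10 genes the interval reached a 2-fold fall, so a fall of that size lay within their error in that fit. For 17 of the 34 the whole interval lay above the same gene's difference in doxycycline, for 16 it held that difference, and for Aprt it lay below it. The tables were normalized apart, and the difference between the comparisons was not tested.

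Proliferation markers moved alongside here too. All 20 were below 0 with a median of −0.45, 0 were called, and their medians by replicate were −0.11, −0.58 and −0.66. Summed levels of other cell markers also lay apart for some lists. Those of B cells, 2 of 6 measured, were at 137 to 292 CPM in Id2-GFP libraries, against 377 to 825 CPM in control-GFP libraries. Stromal and endothelial markers, 3 of 8 measured, were at 242 to 263 CPM in Id2-GFP libraries, against 291 to 410 CPM in control-GFP libraries, and of these lists and the 3 measured erythroid and 3 measured megakaryocyte markers 0 were called. The part of these markers in the differences of the synthesis genes was not tested. Of the 7 ratios compared here, Prps1 over Prps2 and Mthfd2 over Mthfd1 did not overlap between Id2-GFP and control-GFP libraries. The Prps1 ratio was −0.28, −0.47 and −1.11 in Id2-GFP libraries, against −0.11, −0.14 and −0.18 in control-GFP libraries, and the Mthfd2 ratio was −0.42, −0.53 and −0.86 in Id2-GFP libraries, against −0.25, −0.41 and −0.11 in control-GFP libraries. Each gave an exact permutation p of 0.1, the smallest that 3 against 3 libraries allow (adjusted p = 0.229). Of the 76 other pathway genes, 0 were called and 2 passed at an unadjusted p under 0.05, which 2.45% of all genes did. The 2 were Adssl1, an adenylosuccinate synthase of muscle, and Ada, with differences of −0.89 ± 0.25 and −0.69 ± 0.28.

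**Figure D5:**
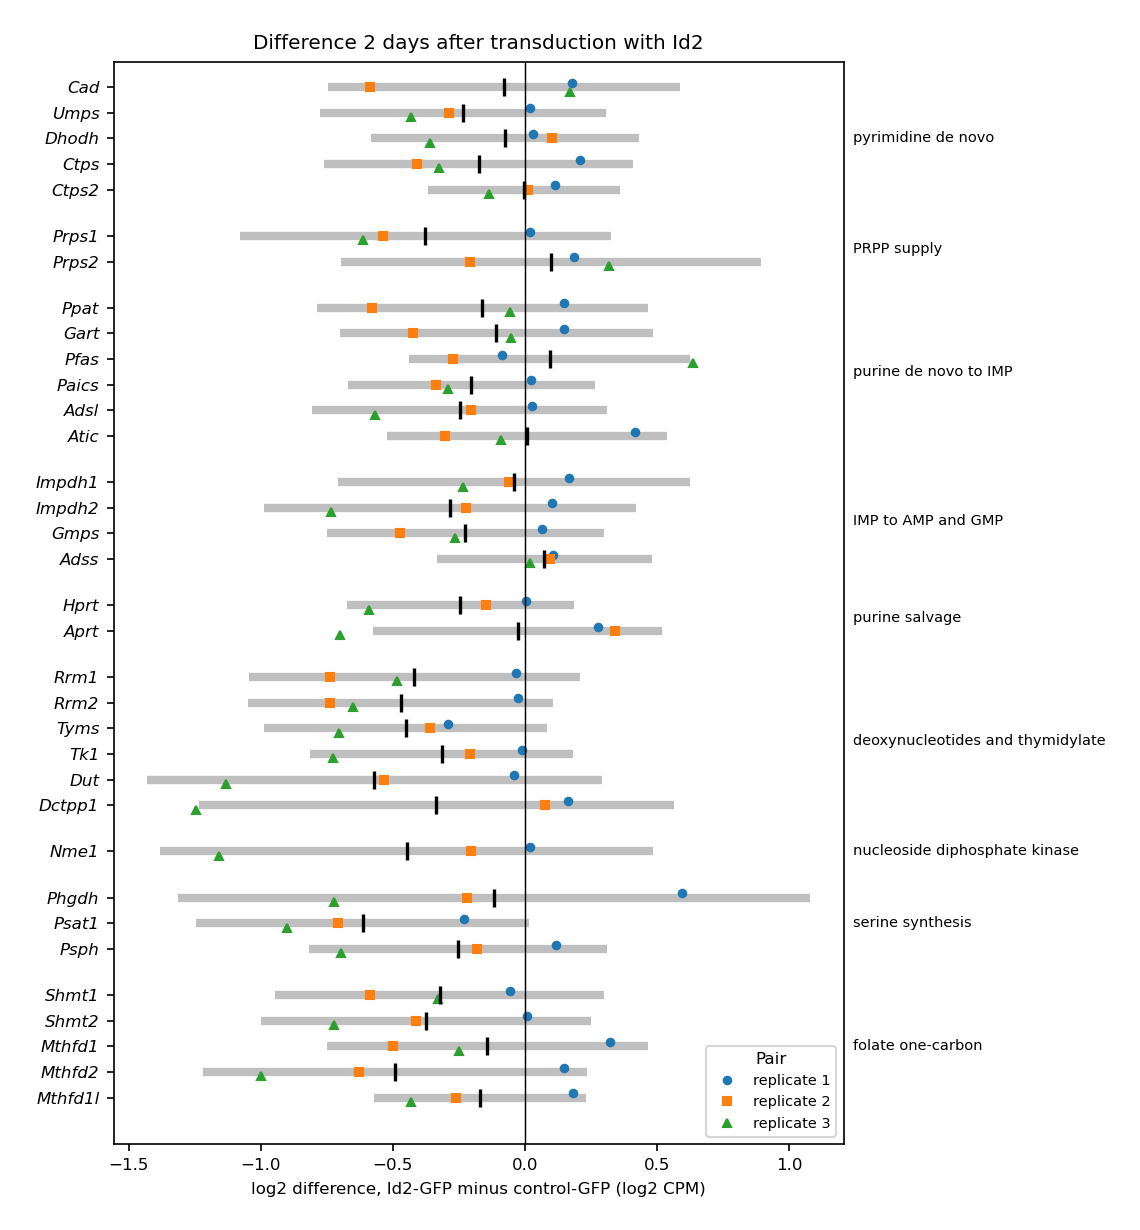
Difference in log2 CPM, Id2-GFP minus control-GFP, for each of the 34 genes (rows, grouped by role). Coloured symbols are the 3 replicate pairs, black ticks the fitted difference and grey bars its 95% confidence interval, and every interval includes 0. The fit had no replicate block.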

How the data were processed

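RNA was sequenced from 14 libraries of Trizol-extracted total RNA made with an Illumina TruSeq V2 kit, per the labels' protocols. Tools listed in the submitters' processing notes are limma, HTSeq, TopHat2 and CASAVA 1.8.2, with mm10 as the build; the step each served is not given in the sources used here. The authors deposited a table of log2 CPM values per experiment, per the file headers. Each deposited log2 value is formed from a read count to which 0.5 was added, divided by a scaled library total, since 100% of values gave whole reads within 0.01 read once this was undone. No count model was fitted, because the deposited unit is log2. The recovered reads gave the depths and shares of reads, and entered some alternative fits, among them other scalings and voom weights.

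Here, limma 3.58.1 in R 4.3.3 was fitted to each deposited table alone (eBayes with a variance trend, two-sided, Benjamini-Hochberg over 13406 or 14563 genes). Of 13419 entries in the doxycycline table, 13 repeated another and were dropped. Doxycycline libraries (n = 4) were set against untreated libraries (n = 4), and Id2-GFP (n = 3) against control-GFP (n = 3). Log2 ratios within libraries were compared by exact two-sided permutation tests, which ignore the pairing. Titles give libraries of both groups the same pair label or number. Pair labels of the doxycycline table start with TRIMA2, except that of replicate 4, which starts with TRIMA1. Titles of the doxycycline libraries other than replicate 3 end in R, those of untreated libraries do not, and its meaning is not stated. Values of each gene were taken as deviations from its group mean. Over all genes, same-labelled libraries deviated together (r = 0.454 to 0.552 for doxycycline and untreated libraries, 0.472 to 0.581 for Id2-GFP and control-GFP libraries). Other library pairs had r of at most −0.0132 and −0.0164. Deviations within a group sum to 0, which pushes these other values down, so they are not separate evidence. From the same-labelled values, the labels were taken to pair the samples. The design was fitted without that block, and the block was an alternative beside other scalings, filters, weights and left-out libraries. RPKM used the merged length of all annotated exons of a gene in GENCODE M21 on GRCm38, the assembly of mm10. Start-site windows came from RefSeq, where Dhodh and Pfas have none. Tables and plots were made with Python 3.11.15, pandas 2.3.3, numpy 2.4.6 and matplotlib 3.10.9.

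The 34 genes, the other lists and the alternatives were chosen with earlier results of these data known. Other pathway genes are named where they were among the 4 largest rises or 4 largest falls called in doxycycline; Slc19a1, Fpgs, Ggh and Mthfs, and Adssl1 with Id2, were named after their values were seen. Exons of Gart, Nme1, Psph, Umps and Shmt1 share 19.7, 12.5, 10.4, 6.11 and 4.74% of their length with another gene, on the same strand for Nme1 and on the opposite strand for the others, where the strand setting of the counting is not stated, and reads of Aprt, Impdh2, Phgdh and Tyms can be shared with annotated processed pseudogenes (4 genes). Counting error only is covered by the read numbers given.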

Additional observations from a re-analysis of the deposited data

Results flagged for a closer look

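Of 82 groups of 4 libraries, 7 held a library far from the other 3 (its gap to its neighbour, as a share of the group's range, was above Dixon's 95% critical value), which chance gives in about 1 in 20 groups. Doxycycline replicate 2 was high for Paics (7.48 log2 CPM, the other 3 at 7.22 to 7.25) and Tk1 (6.10, against 5.90 to 5.92). Untreated replicate 2 was low for Cad (7.44 log2 CPM, against 7.57 to 7.58) and Impdh1 (5.20, against 5.90 to 6.04). Untreated replicate 3 was high for Umps (6.82 log2 CPM, against 6.67 to 6.70). The log2 ratio of Shmt2 over Shmt1 was high in 1 doxycycline library (replicate 2, 2.33, against 1.98 to 2.03) and in 1 untreated library (replicate 3, 2.02, against 1.75 to 1.8). The 5 genes lay apart between doxycycline and untreated libraries with these libraries kept, and remained called without them.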

How the results depend on the processing

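Over 21 alternatives, 29 to 33 of the 34 genes fell in doxycycline, and 1 or 2 rose. Ctps2 was the other riser, with the replicate block (pairing) and without doxycycline replicate 2 (0.14, adjusted p = 0.0311), which gave 2. Phgdh was the gene lost, as given above. The median of the 34 was −1.04 with library totals and −0.89 with quantile normalization, and −0.83 to −0.78 leaving out libraries. Its distance to the median of all genes was −0.79 to −0.74 over all 21. With library totals 6912 of all genes fell and 2702 rose, and the median of all genes was −0.27. There Hprt and Ctps2 turned to −0.15 and −0.13. With Id2, the median of the 34 ran from −0.40 to −0.06 (with array weights) over 18 alternatives; none of the 34 was called in any, which at this spread says nothing of stability. Of all genes, 16 rose and 19 fell with the replicate block, 1 rose with a filter at log2 CPM above 1, and 1 fell with array weights; leaving out libraries gave 0 to 2 that rose and 0 to 1 that fell. The replicate block changed no other call among the 34 genes. No ratio could pass adjustment at these group sizes, with or without the pairing, so their p-values say nothing of stability. Depth was at least 215 reads per gene and library. The spread between libraries, with that between replicate pairs included, set the width of the Id2 intervals.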
